A study of Mus musculus with 4 samples.

Results

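A set of 9 genes of the interleukin-1 (IL-1) family and the inflammasome was followed in mouse bone marrow (BM) macrophages that had or had not engulfed apoptotic cancer cells. They are Il1a, Il1b and Il18, which encode ligands, Il1rn and Il18bp, which encode soluble antagonists, Il1rap, which encodes a receptor chain, and Nlrp3, Pycard and Casp1, which encode parts of the inflammasome. The 9 genes were taken by symbol from the 31053 genes of the count matrices, not by a cut on measured values, although results of these data were known when the list was drawn up.

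IL-1α and IL-1β act through the same receptor, which needs the accessory chain encoded by Il1rap, while the IL-1 receptor antagonist encoded by Il1rn occupies the receptor without signalling. IL-1β and IL-18 are made as inactive precursors. The NLRP3 inflammasome is a complex of the sensor NLRP3, the adaptor ASC (encoded by Pycard) and caspase-1, and caspase-1 cuts these precursors and the pore protein gasdermin D. In macrophages, Il1b and Nlrp3 are classically induced through NF-kB, a step called priming. RNA counts measure neither cutting nor secretion.

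The study sorted BM macrophages of male C57BL/6J mice a few weeks old, grown with M-CSF, the macrophage growth factor, after 16 to 18 h with apoptotic RM1 cells, a mouse prostate cancer line. The RM1 cells carried the dye CFSE. F4/80+CFSE+ macrophages were called efferocytic and F4/80+ macrophages without the dye non-efferocytic. The labels describe the sort of both populations after the co-culture, but other wording in the study leaves it unclear whether the non-efferocytic cells had also met apoptotic cells. Each of 2 experiments gave 1 single-cell library of each group, 4 libraries in all, named here by group and experiment (non-efferocytic 1, efferocytic 1, non-efferocytic 2 and efferocytic 2). The study states a minimum of independent mice per group for its macrophage experiments in general, but the number behind each library is not given in the sources used here. RM1 is itself a mouse line, so transcripts of engulfed cells and of the macrophage cannot be told apart.

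The libraries held 8280, 6695, 13411 and 8408 cells in that order, with 101216659 to 155224183 unique molecular identifiers (UMIs, counted transcripts) in cells. Median depth was 11146 and 9600 UMIs per cell in the non-efferocytic libraries and 17171 and 17475.5 in the efferocytic ones. All 9 macrophage markers were above 1 CPM (UMIs of a gene per 1000000 UMIs of the cells) in every library. Cells with neutrophil granule RNA, with at least 10 summed UMIs of Elane, Prtn3, Mpo and Ctsg or of Ltf, Ngp, Camp and Retnlg, made up 0.918% and 0.940% of the non-efferocytic libraries and 0.373% and 0.274% of the efferocytic ones. Cells with MHC class II RNA (at least 10 summed UMIs of H2-Aa, H2-Ab1, H2-Eb1 and Cd74) were also more frequent among non-efferocytic cells, at 9.91% and 11.3% against 1.41% and 2.23%. The libraries of experiment 2 stood apart. They shared 118 cell barcodes with each other, where every other pair of libraries shared 14 to 23, and summed erythroid markers reached 44.1 and 46.4 CPM in their cells against 0.0889 and 0.0560 CPM in experiment 1. Summed epithelial markers (Krt8, Krt18, Epcam, Krt19, Cldn4 and Cdh1) were at 9.73 and 8.16 CPM against 0.148 and 0.0880 CPM in experiment 1. In both experiments the non-efferocytic library held more of them. The study's supplement describes RM1 as fibroblast-like, so these markers cannot be taken as a measure of RM1 RNA, which was not tested. Non-efferocytic 2 also held 36048 barcodes of 500 to under 1000 UMIs, against 1048 to 2046 in the other libraries.

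Il1a and Il1b lie next to each other on chromosome 2 (GRCm38), both on the minus strand, at chr2:129299610-129309972 and chr2:129364570-129371139. Their lower coordinates, where genes on this strand end, are 65.0 kb apart. Il1rn is on the same chromosome at chr2:24336853-24351494 on the plus strand. Casp1 (chr9:5298517-5307265) and Il18 (chr9:50554827-50581840) share chromosome 9, and Pycard (chr7:127989708-127993867) and Il18bp (chr7:102014885-102018690) share chromosome 7. Nlrp3 lies at chr11:59541568-59566956 and Il1rap at chr16:26581704-26730117. All 9 are protein coding. Of these, 6 overlap an annotated gene on the opposite strand, Il1b with Il1bos and Il18bp with Numa1 among these, and whether reads there were assigned by strand is not stated for these files. The counts come from 3′ ends, so isoforms such as the secreted and intracellular forms of the IL-1 receptor antagonist were not separated.

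The 250 bases before the start of Il1a and Il1b are shown because these neighbouring ligand genes moved in opposite directions between the groups. The sequences are from RefSeq (GRCm38.p6, minus strand, written 5′ to 3′, Il1a at chr2:129309973-129310222 and Il1b at chr2:129371140-129371389), and capitals mark every match to the motifs searched.
Il1a: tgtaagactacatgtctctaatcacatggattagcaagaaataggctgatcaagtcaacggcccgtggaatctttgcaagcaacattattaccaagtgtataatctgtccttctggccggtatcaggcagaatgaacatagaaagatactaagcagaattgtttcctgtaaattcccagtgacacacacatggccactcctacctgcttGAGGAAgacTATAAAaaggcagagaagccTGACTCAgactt
Il1b: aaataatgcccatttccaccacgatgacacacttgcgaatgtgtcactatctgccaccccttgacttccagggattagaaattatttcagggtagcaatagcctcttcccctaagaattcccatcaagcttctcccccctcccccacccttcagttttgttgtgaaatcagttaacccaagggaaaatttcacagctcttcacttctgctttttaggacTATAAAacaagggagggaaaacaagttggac
The motifs searched on both strands were ACGTG (a core of sites bound by hypoxia-inducible factors, HIF), a second such core, GCGTG, and the AP-1 site TGANTCA. The PU.1 core GAGGAA was searched as well, and so were TATAAA, which marks a TATA box, and the NF-kB consensus by name. Both promoters held TATAAA, with its first base at position -32 in Il1a and -31 in Il1b relative to the start, a motif found in 12.4% of 32851 promoter windows of this length. The Il1a window also held GAGGAA at -41 and an AP-1 site at -12, which occurred in 23.3% and 6.75% of windows. The matches in these windows do not overlap each other. Neither window held a HIF core (16.6% of windows for ACGTG and 28.2% for GCGTG) or an NF-kB match (3.90%). Among the 12 windows listed for the 9 genes, an NF-kB match was found in 1 window of Nlrp3 only. These are matches of letters, not binding sites.

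The comparison between the groups asks which of these genes differ in macrophages that had engulfed apoptotic cancer cells. Counts were summed over all cells of a library and tested with edgeR's quasi-likelihood test, with the experiment as a block and Benjamini-Hochberg adjustment over 13869 genes. In all, 3 genes were higher in efferocytic macrophages (Il1a, Il1rn and Casp1) and 2 were lower (Il1b and Nlrp3), while Il18, Il18bp, Il1rap and Pycard did not pass the threshold of 0.05. Across all genes tested, 38.9% were called, 19.9% higher and 19% lower, so 5 of 9 is to be read against a high background. The same 5 genes were called in the same directions in cells without neutrophil granule RNA, where 38.6% of 13763 genes were called. CPM did not overlap between the groups for 7 of the 9 genes, 2 higher and 5 lower, against 66.8% of all genes tested (22.2% higher and 44.7% lower).

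**Figure D1:**
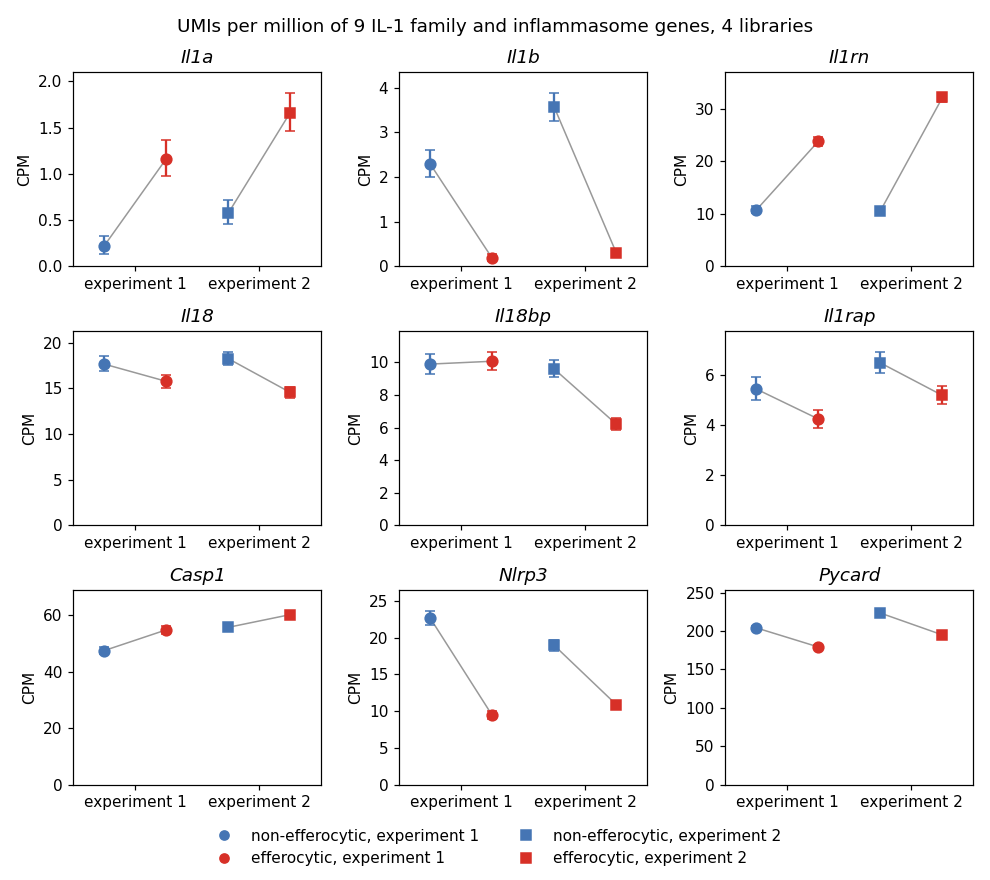
CPM (UMIs per 1000000 UMIs of all cells) of the 9 genes in each of the 4 libraries, with blue points for non-efferocytic and red for efferocytic libraries, circles for experiment 1, squares for experiment 2, bars for exact 95% Poisson intervals (counting error only) and grey lines joining libraries of the same experiment. Il1b fell from 2.29 to 0.176 CPM and from 3.56 to 0.296 CPM, Il1rn rose from 10.7 to 23.8 and from 10.6 to 32.2 CPM, and Il18bp went from 9.89 to 10.1 CPM and from 9.58 to 6.20 CPM.

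These calls rest on 2 libraries per group. Without either non-efferocytic library (fitted without the block, which 3 libraries leave no room for), 0 of the 9 genes were called in all cells, and 2 and 0 of all genes were, although 2999 and 3494 genes had an unadjusted p under 0.05. Without efferocytic 2 the calls were Il1rn higher and Il1b and Nlrp3 lower. Without efferocytic 1 Casp1 was lost and Il18bp was added as lower. CPM is relative to the RNA of a library, and efferocytic cells held more UMIs each. Per cell in place of CPM, the median of all genes shifted to 0.60 on the log2 scale. There 6921 of 13869 genes were called higher and 586 lower, so a call higher has a high background. Of the 9 genes, 4 were called higher per cell (Il1a, Il1rn, Casp1 and Pycard) and Il1b lower. Nlrp3 was no longer called (log2 difference -0.31, adjusted p 0.316).

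Il1b, the inducible and secreted ligand, showed the largest difference of the 9 genes. It was counted at 2.29 CPM (95% Poisson interval 2.01 to 2.61, 232 UMIs) in non-efferocytic 1 and 3.56 CPM (3.26 to 3.89, 493 UMIs) in non-efferocytic 2. The efferocytic libraries held 0.176 CPM (0.110 to 0.266, 22 UMIs) and 0.296 CPM (0.217 to 0.395, 46 UMIs). Both efferocytic libraries were below both others, 13.02-fold lower in experiment 1 and 12.02-fold lower in experiment 2, and the group means were 2.93 ± 0.90 and 0.236 ± 0.085 CPM (SD, n = 2 libraries each). The fitted log2 fold change was -3.53 with SE 0.19 and an edgeR adjusted p of 3.8e-05. Leaving out 1 library moved it between -3.90 and -3.16, and the adjusted p was 0.065 without non-efferocytic 1 and 0.081 without non-efferocytic 2. In sums over cells, fewer cells with Il1b and less Il1b RNA per cell cannot be told apart.

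Most of the Il1b counted in efferocytic 2 sat in barcodes that were cells in another library too. These 149 cells held 36 of its 46 Il1b UMIs (78.3%) but 0.962% of all its UMIs. Of these 36, 35 came from 2 barcodes. The first held 22 Il1b UMIs of 1391 in efferocytic 2 and 31 of 1445 in non-efferocytic 2, and the second held 13 of 1675 and 12 of 1834. Without cells with a shared barcode, Il1b in efferocytic 2 was 0.0650 CPM and in non-efferocytic 2 was 3.23 CPM, and the log2 fold change was -4.43 (adjusted p 0.00044). Without these cells the other 8 genes kept their direction and their side of the threshold.

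Few cells carried Il1b. At least 1 UMI was found in 1.46% and 1.40% of non-efferocytic cells and in 0.134% and 0.143% of efferocytic cells. With every cell thinned to 5000 UMIs, leaving out the 505 to 3404 shallower cells of each library, the shares were 0.919% and 1.04% against 0.0650% and 0.0633%, so the order of the groups was the same at equal depth. In cells with collagen RNA (at least 10 summed UMIs of Col1a1, Col1a2 and Col3a1), 0 Il1b UMIs were found in the 33, 16, 60 and 25 cells of the 4 libraries, with upper Poisson limits of 2.71 to 6.17 CPM. The 1% of non-efferocytic cells with the most Il1b held 83.6% and 89.0% of its UMIs, and a single cell of non-efferocytic 2 held 75. Of the Il1b UMIs of the non-efferocytic libraries, 1 of 232 and 16 of 493 lay in cells with neutrophil granule RNA. Without such cells the log2 fold change was -3.80 (SE 0.21, adjusted p 3.1e-05), and without cells with MHC class II RNA as well it was -3.72. Neutrophil markers other than the granule genes (8, S100a8 and S100a9 among them) summed to 2297 and 2589 CPM over all cells of the non-efferocytic libraries and to 780 and 576 CPM over those of the efferocytic ones. In cells without granule RNA they summed to 73.4 and 110.5 CPM against 52.2 and 56.7 CPM, with Ly6g and Stfa2 at 0 there in all 4 libraries. With cells carrying S100a8 or S100a9 RNA (at least 10 summed UMIs) left out as well, Il1b was still called lower. This left 8203 and 13280 non-efferocytic and 6666 and 8382 efferocytic cells. No other part of these markers in the Il1b difference was tested.

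Cells with at least 2 Il1b UMIs outside the granule class, 38 in non-efferocytic 1 and 65 in non-efferocytic 2, were set beside cells with none. These cells were chosen by their Il1b, so what follows is a description without a test, and the genes named were picked after their values were seen. Nr4a1, an immediate early gene, stood 20.7-fold and 12.0-fold higher in them. Egr1, another immediate early gene, was 6.97-fold and 5.38-fold higher. Cxcl2, a neutrophil-attracting chemokine, was 5.73-fold and 79.7-fold higher. Among the 9 genes, Il1rn was 7.06-fold and 11.02-fold higher and Nlrp3 3.70-fold and 2.52-fold higher, on 30 to 91 UMIs. Il1a rested on 1 UMI in non-efferocytic 1 and on 22 UMIs in non-efferocytic 2. Pycard was at 0.802 and 0.774 times the level of the other cells and Casp1 at 0.728 and 1.04 times. Median depth was 10410.5 and 10501 UMIs in these cells against 11146 and 9545 in cells without Il1b, and 18.4% and 18.5% of them carried MHC class II RNA against 9.85% and 11.2%. In non-efferocytic 2, 6.15% of them carried S100a8 or S100a9 RNA (at least 10 summed UMIs), genes typical of neutrophils and monocytes, against 0.00763% of cells without Il1b, while in non-efferocytic 1 none did. Barcodes shared with another library made up 5.26% and 4.62% of them against 0.656% and 1.11%. The part of these cells in the ratios above was not tested.

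Il1b was also counted outside cells. In barcodes of 10 to 99 UMIs, too small to be cells, it was at 545 CPM (890 UMIs) in non-efferocytic 2 and 567 CPM (791 UMIs) in efferocytic 2, against 5.29 and 6.49 CPM (19 and 15 UMIs) in the libraries of experiment 1. Efferocytic 2 thus held more Il1b UMIs in these barcodes than in its 8408 cells, which held 46. Il1rn was at 199 and 202 CPM there in experiment 2 and at 6.12 and 4.76 CPM in experiment 1. In all barcodes under 100 UMIs Il1b was at 149 and 167 CPM in experiment 2, above its level in the cells of either group. If all Il1b in the cells of efferocytic 2 were free RNA of this makeup, free RNA could be at most 0.177% of the UMIs of those cells. Removing 1% of UMIs as free RNA therefore takes Il1b in efferocytic 2 to 0 by construction, so no fold is given, and with 10% removed it could not be fitted. Neutrophil markers other than the granule genes were also higher in barcodes of 10 to 99 UMIs of experiment 2, at 4810 and 3814 CPM against 672 and 609 CPM in experiment 1. Whether this RNA was free or in fragments of other cells was not tested.

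**Figure D2:**
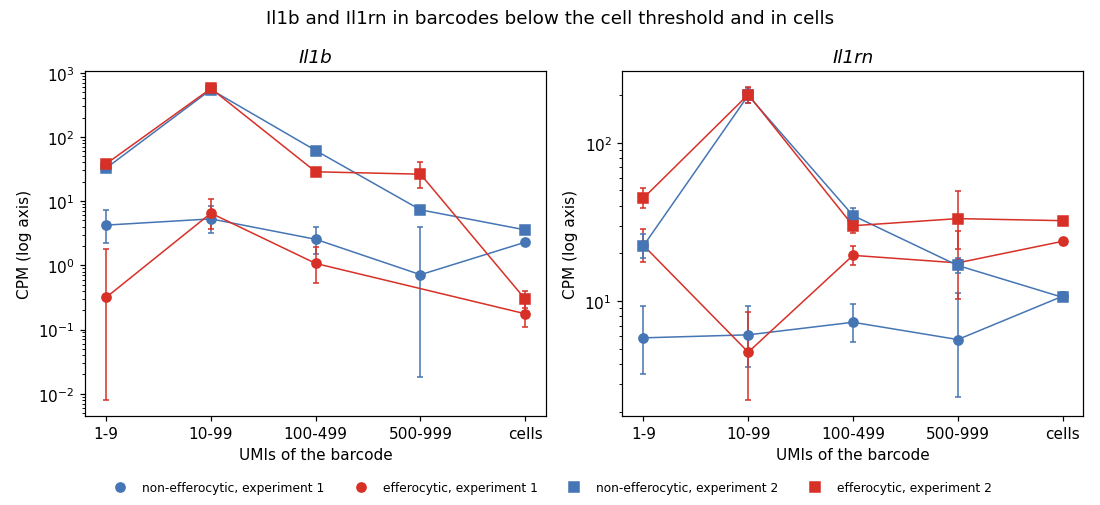
CPM (log axes) of Il1b and Il1rn by the number of UMIs of the barcode and in cells, for the 4 libraries (blue non-efferocytic, red efferocytic, circles experiment 1, squares experiment 2, bars exact 95% Poisson intervals). Both squares of Il1b peak at 545 and 567 CPM in barcodes of 10 to 99 UMIs, and a point with 0 UMIs (Il1b in efferocytic 1 at 500 to under 1000 UMIs) is not drawn.

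Il1a, the ligand that is active as a precursor, went the other way but at a low level. It had 0.217 CPM (22 UMIs) in non-efferocytic 1 and 0.571 CPM (79 UMIs) in non-efferocytic 2, against 1.16 CPM (145 UMIs) in efferocytic 1 and 1.66 CPM (258 UMIs) in efferocytic 2. The groups did not overlap, and the efferocytic library was 5.34-fold higher in experiment 1 and 2.91-fold higher in experiment 2. The fitted log2 fold change was 1.98 with SE 0.26 and an adjusted p of 0.0011. The call was lost without non-efferocytic 1 (1.41, adjusted p 0.138), non-efferocytic 2 (2.80, adjusted p 0.081) or efferocytic 2 (1.68, adjusted p 0.117). It was also lost with 10% of UMIs removed as free RNA (adjusted p 0.097), a step that takes Il1a in non-efferocytic 2 to 0 by construction.

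Il1a UMIs were found in a larger share of efferocytic cells. They were found in 0.242% and 0.358% of non-efferocytic cells and in 1.91% and 2.51% of efferocytic cells, and after thinning in 0.139% and 0.220% against 0.439% and 0.721%. In barcodes under 100 UMIs Il1a was at 0.300 and 1.65 CPM (2 and 9 UMIs) in non-efferocytic 1 and efferocytic 1 and at 6.27 and 9.11 CPM (45 and 52 UMIs) in non-efferocytic 2 and efferocytic 2, in the same order of groups as in cells and, in experiment 2, above the level in cells beyond counting error. The part of such RNA in the shares of cells was not tested. The highest count in a cell was 12 in both libraries of experiment 2 and 2 or 3 in those of experiment 1. Cells with a shared barcode held 17 of the 79 UMIs in non-efferocytic 2 and 23 of the 258 in efferocytic 2, and without them the log2 fold change was 2.12. No Il1a UMI was found in cells with granule or collagen RNA of any library. In cells with at least 2 Il1a UMIs, 16 in efferocytic 1 and 28 in efferocytic 2, Gng11 was 4.94-fold and 3.96-fold higher than in cells without Il1a and Cdkn1c, a cell cycle inhibitor, was 5.79-fold and 2.67-fold higher. These genes were picked after their values were seen and were not tested. Nlrp3 was at 0.449 and 0.931 times the level of the other cells there, on 2 and 7 UMIs. The first of the shared barcodes with Il1b described above was among these cells, and all 22 Il1b UMIs found in them in efferocytic 2 came from it.

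Il18, the ligand that macrophages express without priming, reached 17.7 and 18.3 CPM without engulfment and 15.8 and 14.6 CPM with it. The efferocytic values were lower in both experiments, by small margins. The fitted difference was -0.14 on the log2 scale (SE 0.092, adjusted p 0.259) and did not pass the test. After thinning, Il18 was found in 8.04% and 9.12% of non-efferocytic cells and in 7.75% and 7.47% of efferocytic cells. Per cell the sign turned, with a log2 difference of 0.48 (adjusted p 0.112).

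**Figure D3:**
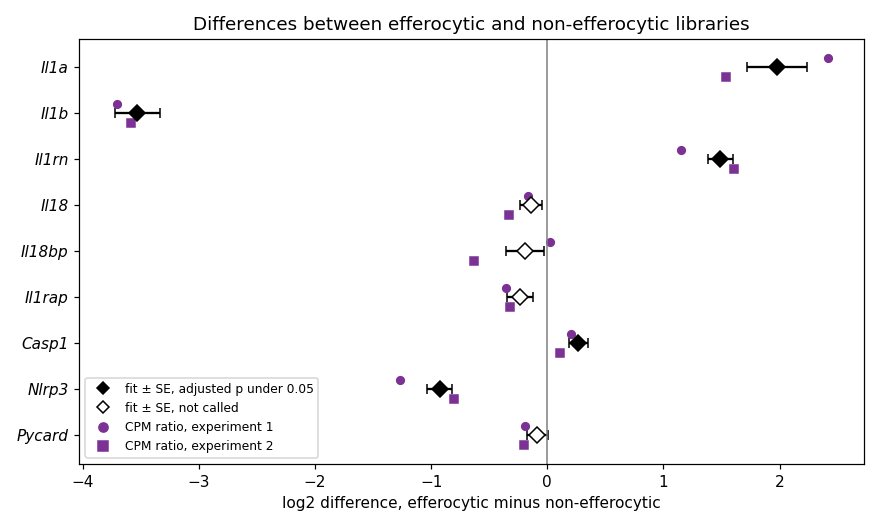
Differences of the 9 genes on the log2 scale, efferocytic minus non-efferocytic: black diamonds give the edgeR fit with its SE over all 4 libraries (filled where the adjusted p is under 0.05), purple circles and squares the log2 ratio of CPM within experiments 1 and 2. Il1b at -3.53, Il1a at 1.98 and Il1rn at 1.49 are farthest from 0, and the squares and circles of Il18bp lie on opposite sides of 0.

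Il1rn, which encodes the IL-1 receptor antagonist, rose in both experiments. It was at 10.7 CPM (1086 UMIs) in non-efferocytic 1 and 10.6 CPM (1462 UMIs) in non-efferocytic 2, and at 23.8 CPM (2981 UMIs) in efferocytic 1 and 32.2 CPM (4999 UMIs) in efferocytic 2. The non-efferocytic libraries were nearly equal and the efferocytic ones 2.22-fold and 3.05-fold higher, with group means of 10.6 ± 0.11 and 28.0 ± 5.9 CPM (SD, n = 2). The log2 fold change was 1.49 with SE 0.11 and an adjusted p of 9.2e-05. Starting from all cells, it stayed between 1.38 and 2.11 under the 18 alternatives that kept all 4 libraries, the highest of them per cell. Some of these alternatives left out granule cells. Without 1 library it lay between 1.31 and 1.67, and the adjusted p was 0.073 without non-efferocytic 1 and 0.081 without non-efferocytic 2.

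The share of cells with an Il1rn UMI was 6.55% and 6.05% in non-efferocytic libraries and 21.7% and 28.2% in efferocytic libraries, and after thinning 3.38% and 3.68% against 8.83% and 11.7%. Its UMIs were less concentrated in efferocytic cells, where the top 1% of cells held 24.9% and 19.8% of them, against 52.0% and 48.7%. These counts were not thinned and efferocytic cells were deeper, so this difference was not separated from depth. Among classes of cells by granule, MHC class II and collagen RNA, Il1rn was highest in the few cells with collagen RNA. These reached 103 and 73.6 CPM where no dye was taken up and 145 and 179 CPM where it was. Those cells held 12.7% and 6.84% of the Il1rn UMIs of the non-efferocytic libraries and 2.92% and 3.22% of the efferocytic ones. In experiment 1, 16 of 33 of them in the non-efferocytic and 8 of 16 in the efferocytic library held an Il1rn UMI. Their median depth there was 39965 and 40376.5 UMIs, against 11146 and 17171 over all cells. How evenly Il1rn was spread over these few cells was not examined. Without cells with collagen RNA the log2 fold change was 1.56. In cells with MHC class II RNA it was 6.71 and 6.12 CPM against 16.8 and 17.9 CPM, and in the remaining cells 9.90 and 10.7 CPM against 23.4 and 31.8 CPM. Il1rn was higher in efferocytic libraries in each of these 3 classes in both experiments, although the Poisson intervals of the cells with collagen RNA overlapped in experiment 1 (86.6 to 122 against 117 to 179 CPM). In cells with granule RNA it was at 8.71 against 12.3 CPM in experiment 1 and at 7.41 CPM (16 UMIs) against 0 UMIs in experiment 2, where the upper limit was 7.69 CPM.

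**Figure D4:**
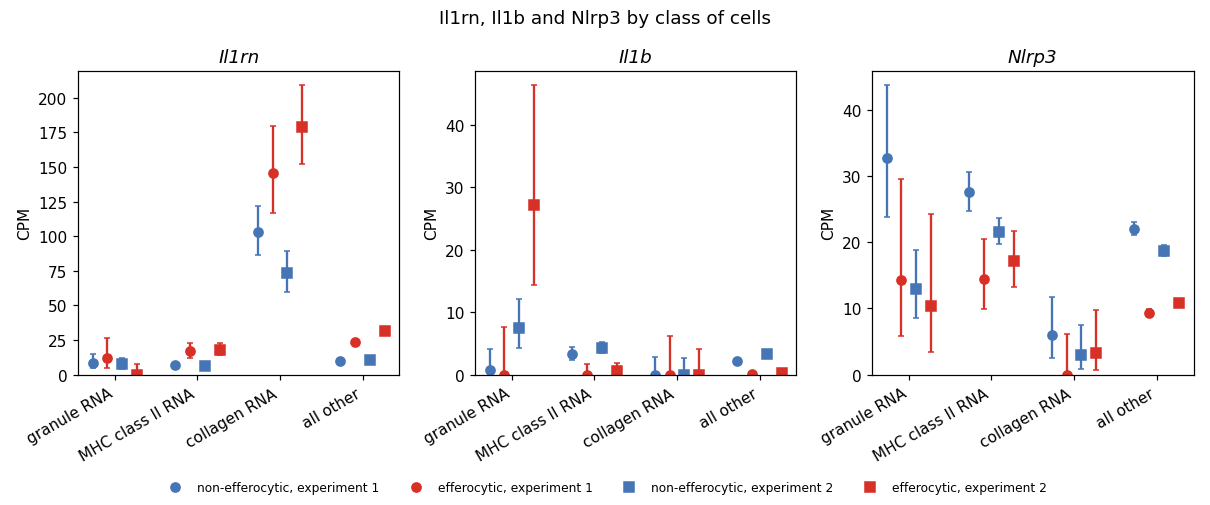
CPM of Il1rn, Il1b and Nlrp3 in cells with neutrophil granule RNA and, outside them, in cells with MHC class II RNA, with collagen RNA and in all other cells, for the 4 libraries (blue non-efferocytic, red efferocytic, circles experiment 1, squares experiment 2, bars exact 95% Poisson intervals). Il1rn is highest in cells with collagen RNA (73.6 to 179 CPM), and the high Il1b point of efferocytic 2 in granule cells (27.1 CPM) comes from 13 UMIs of 1 cell with a shared barcode.

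Il18bp, which encodes the soluble binding protein that neutralises IL-18, was lower in the efferocytic library of experiment 2, while the libraries of experiment 1 differed by less than counting error. It was at 9.89 CPM in non-efferocytic 1 and 10.1 CPM in efferocytic 1, and at 9.58 CPM in non-efferocytic 2 and 6.20 CPM in efferocytic 2. Efferocytic 2 was below the other 3 libraries, which lay close together, so the groups overlap. The fitted log2 difference was -0.19 (SE 0.16, adjusted p 0.372). Without efferocytic 1 it was -0.58 and called (adjusted p 0.031), in a fit where the lone efferocytic library is assumed to vary like the non-efferocytic pair, and without efferocytic 2 it was 0.20 (adjusted p 0.345). After thinning, 4.57% and 4.81% of non-efferocytic cells and 4.81% and 3.05% of efferocytic cells held a UMI of Il18bp.

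The IL-1 family list of antagonists and decoys had 4 genes tested, with Il1rn called higher and Sigirr and Il1r2 lower (median log2 fold change -0.37, against -0.02 over all genes tested, of which 19.9% were higher and 19% lower). In cells without neutrophil granule RNA Il1r2 was not tested, and 1 of 3 genes was higher and 1 lower, with a median of -0.21. Sigirr, an inhibitory receptor of the family, went from 1.44 and 1.73 CPM to 1.02 and 0.992 CPM (log2 fold change -0.55, adjusted p 0.044). Il1r2, the decoy receptor for IL-1, averaged 0.188 CPM, near the limit of counting. Among the 3 ligands tested 1 was higher, 1 lower and 1 not called. Il33, Il36a, Il36b, Il36g, Il1f10 and Il36rn were not tested.

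Il1rap, the shared accessory chain of the IL-1, IL-33 and IL-36 receptors, went from 5.43 to 4.24 CPM in experiment 1 and from 6.48 to 5.18 CPM in experiment 2. The values did not overlap, but the difference of -0.23 on the log2 scale (SE 0.11, adjusted p 0.133) did not pass the test, and per cell it was 0.39 (adjusted p 0.219). After thinning, 2.73% and 3.33% of non-efferocytic and 2.08% and 2.72% of efferocytic cells held a UMI. In cells with granule RNA Il1rap was at 15.2, 14.4, 10.2 and 14.6 CPM in non-efferocytic 1, efferocytic 1, non-efferocytic 2 and efferocytic 2, on 7 to 22 UMIs, above its level over all cells in each library.

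Of the 5 receptor genes tested, Il1rap among them, 3 were lower and none higher in all cells, against 19% and 19.9% of all genes. The only called one with a mean of at least 1 CPM was Il1rl2, the IL-36 receptor, which went from 2.42 and 2.52 CPM to 1.72 and 1.14 CPM (log2 fold change -0.71, adjusted p 0.024). Il1r1, the signalling receptor for IL-1, was at 0.504, 0.416, 0.672 and 0.625 CPM and was not called (log2 difference -0.08, adjusted p 0.807). In cells without neutrophil granule RNA 2 of the 5 receptor genes were lower. Of 15 genes of IL-1 receptor signalling, 2 were higher and 2 lower, against 19.9% and 19% of all genes, and without granule cells 2 were higher and 3 lower, against 19.8% and 18.8%. Tollip, an adaptor that restrains the pathway, rose from 31.7 and 30.9 CPM to 41.9 and 46.1 CPM (0.60, adjusted p 0.00092), and the kinase gene Irak1 rose by 0.31 on the log2 scale (adjusted p 0.019). The kinase gene Irak4 fell by 0.33 (adjusted p 0.011) and Irak3, which encodes an inhibitory member of that family, fell by 0.29 (adjusted p 0.026).

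Nlrp3, the inflammasome sensor, was lower in CPM in efferocytic macrophages, while per cell it was not called (log2 difference -0.31, edgeR adjusted p 0.316). It was at 22.7 CPM (2293 UMIs) in non-efferocytic 1 and 18.9 CPM (2619 UMIs) in non-efferocytic 2, and at 9.42 CPM (1177 UMIs) in efferocytic 1 and 10.9 CPM (1688 UMIs) in efferocytic 2. The groups were apart in CPM, with efferocytic libraries 2.41-fold lower in experiment 1 and 1.74-fold lower in experiment 2. The log2 fold change was -0.92 with SE 0.11 and an adjusted p of 0.00064. Without 1 library it lay between -1.05 and -0.79, with an adjusted p of 0.095 without non-efferocytic 1 and 0.081 without non-efferocytic 2.

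The share of cells with an Nlrp3 UMI was 20.3% and 15.2% in non-efferocytic libraries and 13.8% and 15.8% in efferocytic libraries, whose cells were deeper. After thinning the shares were 11.02% and 9.32% against 5.01% and 5.34%. In cells with MHC class II RNA Nlrp3 was at 27.6 and 21.6 CPM against 14.5 and 17.1 CPM, and in the remaining cells without collagen RNA at 22.0 and 18.7 CPM against 9.35 and 10.8 CPM. It was lower in efferocytic libraries in both classes, with overlapping Poisson intervals in the cells with MHC class II RNA of experiment 2 (19.7 to 23.6 against 13.3 to 21.8 CPM). In cells with collagen RNA 0 to 8 Nlrp3 UMIs were found per library. Among thinned non-efferocytic cells, Il1b was found in 2.06% and 1.51% of cells with an Nlrp3 UMI and in 0.790% and 1.00% of cells without one, on 16 and 14 cells.

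Pycard, the gene of the adaptor ASC, was found in most cells and differed little. It went from 204 to 179 CPM in experiment 1 and from 223 to 195 CPM in experiment 2, 1.14-fold and 1.15-fold lower. The fitted difference was -0.09 (SE 0.090, adjusted p 0.481). Per cell it was 0.53 and called higher (adjusted p 0.019), as were 6921 of 13869 genes, so its direction depends on the scale. After thinning, 60.1% and 62.3% of non-efferocytic cells and 53.0% and 57.6% of efferocytic cells held a UMI. In cells with collagen RNA Pycard was at 58.3 to 71.9 CPM in the 4 libraries.

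Casp1, which encodes the protease caspase-1, went from 47.5 to 54.9 CPM in experiment 1 and from 55.8 to 60.3 CPM in experiment 2. The efferocytic value was the higher of each experiment, 1.15-fold and 1.08-fold, but the groups overlap across experiments. The log2 fold change was 0.27 (SE 0.080, adjusted p 0.032). This call was lost without any 1 of the 4 libraries (0.16 to 0.39, adjusted p 0.146 to 0.487), without the block (0.26, adjusted p 0.122), with DESeq2 (0.27, adjusted p 0.081), with library totals in place of TMM (0.16, adjusted p 0.191), with genes averaging under 10 CPM left out (0.17, adjusted p 0.122) and with 10% of UMIs removed as free RNA (0.25, adjusted p 0.110). In cells without granule RNA, where it was 0.25 (adjusted p 0.039), it was lost under 9 of 18 alternatives that kept all libraries, among them Cell Ranger's rule for cells (adjusted p 0.054) and removal of cells under 5000 UMIs (adjusted p 0.063), of cells with collagen RNA (adjusted p 0.063) or of 1% free RNA (adjusted p 0.061). After thinning, 19.6% and 23.2% of non-efferocytic and 22.5% and 24.1% of efferocytic cells held a UMI.

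Of 11 inflammasome sensor genes tested, Nlrp3 among them, 5 were lower and 1 was higher, against 19% and 19.9% of all genes tested. Naip5 went from 21.0 and 16.8 CPM to 15.4 and 11.3 CPM (-0.41, adjusted p 0.0094) and Nlrp1b from 3.22 and 3.42 CPM to 2.01 and 2.37 CPM (-0.50, adjusted p 0.022). Aim2, the sensor of cytosolic DNA, rose from 19.9 and 23.0 CPM to 23.9 and 27.6 CPM (0.37, adjusted p 0.0082). Mefv, which encodes pyrin, had the largest log2 fold change of the list at -1.57 but averaged 0.636 CPM.

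Of the 11 genes of the adaptor, caspases and pore proteins, which include Pycard and Casp1, 5 were lower and 2 higher (19% and 19.9% of all genes). Txnip, whose product binds NLRP3, went from 122 and 109 CPM to 77.2 and 48.9 CPM (-0.80, adjusted p 0.0026). P2rx7, the ATP-gated channel upstream of NLRP3, went from 52.4 and 51.0 CPM to 31.2 and 28.5 CPM (-0.69, adjusted p 0.00063). Casp4, the caspase that senses intracellular lipopolysaccharide, went from 19.2 and 15.7 CPM to 11.1 and 9.06 CPM (-0.68, adjusted p 0.00085). Gsdme, a pore protein cut by another caspase, rose from 5.01 and 6.36 CPM to 6.94 and 12.1 CPM (0.81, adjusted p 0.0019). The median log2 fold change was -0.28 for the sensors and -0.09 for the adaptor, caspase and pore genes.

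Of 12 NF-kB-primed cytokine and feedback genes tested, 7 were lower and 1 was higher, against 19% and 19.9% of all genes. Their median log2 fold change was -0.49. The calls of this and the other lists are relative to the RNA of a library. Per cell, 586 of 13869 genes were lower and 6921 higher, and the lists were not counted on that scale. Cxcl2 fell in both experiments but from very different levels, from 87.2 to 8.01 CPM and from 8.38 to 3.099 CPM (-2.40, adjusted p 0.0022). Nfkbiz, an inducible NF-kB cofactor, went from 32.9 to 5.93 CPM and from 9.31 to 2.51 CPM (-2.09, adjusted p 5.8e-05). Cxcl1 went from 4.72 to 0.28 CPM and from 0.347 to 0.168 CPM (-2.84, adjusted p 0.0057). Ccl4 was the gene called higher, at 122 and 68.2 CPM against 140 and 132 CPM (0.68, adjusted p 0.0084). Tnf was at 6.64, 4.17, 4.52 and 4.21 CPM in non-efferocytic 1, efferocytic 1, non-efferocytic 2 and efferocytic 2 and was not called (-0.28, adjusted p 0.158).

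**Figure D5:**
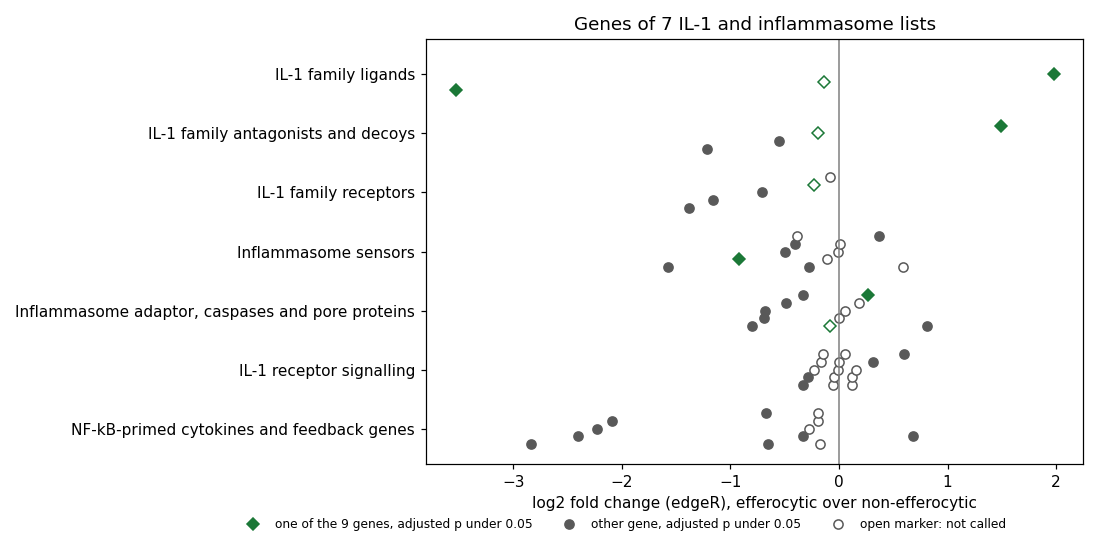
Log2 fold change (edgeR, efferocytic over non-efferocytic, all cells) of each tested gene of 7 lists, filled where the adjusted p is under 0.05, with green diamonds for the 9 genes and small vertical offsets only to keep points apart. Il1b (-3.53) and Il1a (1.98) are the outermost ligand genes, and 7 of 12 NF-kB-primed genes lie left of 0 as filled points.

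Across cells, only Il18, Casp1 and Pycard were found in at least 5% of thinned cells without granule RNA in every library (Nlrp3 fell just short, at 4.98% in 1 library), so only these were compared with the other 6489 genes that passed that limit. Correlations of thinned counts were weak. The genes most like Pycard were Lyz2 (mean r 0.134 over the 4 libraries), Rpl32, Rps18, Cd52 and Tyrobp. Those most like Casp1 were Lgals3 (0.093), Capg, Cyba, Ftl1 and Ubb, and those most like Il18 were Ifitm3 (0.062), Ifi27l2a, Ms4a6c, Ly6e and Ms4a6b. The cells of a library share its depth and preparation.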

How the data were processed

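Single-cell 3′ libraries (10x Genomics) of 4 sorted macrophage populations were analysed. Per the labels the authors used Cell Ranger 3.0.0 with mm10, and the headers of some files name 3.1.0. The deposited values are raw UMI counts per gene and barcode, not normalized, with empty barcodes kept. A barcode was taken as a cell if it held 200 or more genes and 1000 or more UMIs, of which no more than 10% were mitochondrial. No doublets were removed, and leaving out the 5% of cells with the highest scrublet score was tried as an alternative.

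Counts were summed per library and tested with edgeR 4.0.16 (TMM, filterByExpr, quasi-likelihood test, model with experiment and group) at a Benjamini-Hochberg adjusted p under 0.05. The experiment paired the libraries per the labels, and deviations of the libraries of an experiment from their group means correlated at 0.767 over 10812 genes. The fit and the correlation step were run on simulated counts. Those for the fit had few changed genes, in balanced directions, and the same dispersion for every gene. They do not cover data where many genes change. Where nothing says that libraries came from separate animals, p-values measure only the spread between these libraries. Intervals are exact Poisson or binomial at 95% and cover counting error only. CPM values were scaled to all UMIs of the cells in question. Positions are from GENCODE vM21 and promoters from RefSeq.

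The 9 genes and the lists were chosen with earlier results of these data known. Named genes were the 9, up to 4 called genes per list with the largest absolute log2 fold change (averaging 1 CPM or more), and the 5 genes most correlated with each of the 9 that was found in at least 5% of thinned cells without granule RNA in every library. Il1r1, Tnf, Mefv, Il1r2 and the genes of cells rich in Il1b or Il1a fall outside this rule and were named after their values were seen. Alternatives changed the block, test, scaling, filters, cells kept, free RNA and libraries. Removal of 1% free RNA, of cells with collagen RNA and of cells with shared barcodes was added after seeing the data. The levels of some marker lists are not reported here.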

Additional observations from a re-analysis of the deposited data

Results flagged for a closer look

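The log2 ratio of Il18bp, efferocytic over non-efferocytic, was 0.025 in experiment 1 and -0.63 in experiment 2, so the signs were opposite. In experiment 1 the Poisson intervals of the libraries overlapped (9.29 to 10.52 against 9.52 to 10.64 CPM), and in experiment 2 they did not (9.08 to 10.11 against 5.82 to 6.61 CPM). The difference between the experiments was not tested.

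Barcodes under 100 UMIs were not tested between the groups, and only the alternatives that removed free RNA used their makeup. Il1rn in them was higher in the efferocytic library of each experiment, at 15.0 CPM (95% Poisson interval 11.9 to 18.6) against 6.0 CPM (4.29 to 8.17) in experiment 1 and 83.1 CPM (75.8 to 90.9) against 62.5 CPM (56.9 to 68.6) in experiment 2. These pooled intervals do not overlap and cover counting error only. The difference came from barcodes of 1 to 9 UMIs (22.5 against 5.86 CPM and 44.8 against 22.3 CPM), while in those of 10 to 99 UMIs Il1rn was at 4.76 against 6.12 CPM and at 202 against 199 CPM.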

How the results depend on the processing

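The calls rest on 2 libraries per group, and the 22 to 258 UMIs of Il1a and the 22 and 46 UMIs of Il1b in efferocytic libraries are few. Alternatives that left out cells with at least 3 granule UMIs, with S100a8 or S100a9 RNA or with MHC class II RNA left out granule cells in both sets. They were the same fits in each set, and their values are counted in both. For the 9 genes under alternatives that kept all libraries (all cells and cells without granule RNA), 287 values kept their direction and their side of the threshold, 19 lost the call and 8 changed sign. All 8 came from counting UMIs per cell, where Il18 was 0.48 in all cells and 0.48 without granule cells, Il18bp 0.42 and 0.43, Il1rap 0.39 and 0.41, and Pycard 0.53 and 0.54. Il18bp also changed sign without efferocytic 2 (0.20 and 0.18) and was called without efferocytic 1 (-0.58 and -0.59).

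Of the 9 genes, 5 were called in all cells and 5 without granule cells. Without the replicate block, which pairs the libraries of an experiment, 4 and 3 were called, and 2358 genes in place of 5397 over all genes. The gene lost by this in all cells was Casp1, and without granule cells Casp1 and Il1a (1.89, adjusted p 0.053). With genes averaging under 10 CPM left out, 2 and 2 were called, and 3026 over all genes. Of the 9, 4 were not tested there, Il1a and Il1b among them, while Casp1 was tested and not called. With 10% of UMIs removed as free RNA, 2 and 2 were called and 2473 over all genes, and Il1b could not be fitted. DESeq2 called 3404 genes. Without 1 library, 0 to 5 of the 9 genes were called in all cells, 0 to 4 without granule cells, and 0 to 2933 over all genes. With library totals in place of TMM, 1847 genes were higher and 3700 lower, against 2761 and 2636. In CPM, with or without granule cells, 7 genes did not overlap between the groups, against 66.8% of all genes tested in all cells. Shares of cells did not overlap for 7 genes unthinned (6 higher and 1 lower), where efferocytic cells were deeper. At 5000 or 2000 UMIs they did not overlap for 7 (2 higher and 5 lower), with Casp1 apart only before thinning and Nlrp3 only after. The matching share over all genes was not computed, so these counts are no result about the 9 genes. Of 15 genes most like Il18, Casp1 or Pycard, 6 were kept without thinning. No explanation for these changes was tested.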

Other observations

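Detection of 2 of the genes in the same cell was counted in cells thinned to 5000 UMIs, outside cells with granule RNA, and is given as values with no test. Pycard was found in 60.5%, 53.7%, 64.4% and 57.6% of cells with a Casp1 UMI in non-efferocytic 1, efferocytic 1, non-efferocytic 2 and efferocytic 2, and in 60.0%, 52.8%, 61.7% and 57.5% of cells without one. Il1rn was found in 4.26% and 8.77% of efferocytic cells with an Nlrp3 UMI and in 9.05% and 11.9% of those without, while in non-efferocytic cells the shares were 3.60% and 3.67% with and 3.32% and 3.66% without. Nlrp3 was found in 16 of 66 non-efferocytic 1 cells with an Il1b UMI (24.2%, against 10.8% of cells without) and in 14 of 104 in non-efferocytic 2 (13.5% against 9.33%).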
